A study of Mus musculus with 6 samples.

Results

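The expression of tubulin isotype genes was examined in the CFPAC-1 line, derived from a human pancreatic adenocarcinoma (PAAD), after knockdown of *KRT7*. The genes were chosen by identity, but with earlier results of these data known. They were 10 Ensembl identifiers, 4 encoding alpha-tubulins and 6 encoding beta-tubulins. Of these, 9 were analysed here, in a count table of 30543 identifiers, and 8 passed the filter on low counts that left 15736 genes for testing. The identifier of *TUBB2B* (ENSG00000137285), a beta-tubulin with a sequence nearly identical to that of *TUBB2A*, was not among those in the count table. *TUBB3* (ENSG00000258947) was listed but was too low to be tested.

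The groups were si-KRT7, in which cells received a siRNA directed at *KRT7*, and si-Control, in which they received a control siRNA, with 3 libraries each. Both groups were therefore transfected cells of the same line. The time of harvest and the siRNA duplex used for sequencing are not given in the sources used here. The study describes its experiments with this knockdown as independent repeats, but the labels do not tie each library to a culture. The p-values set the group difference against the spread between libraries, and whether these were independent cultures is not known. The labels give the organism as mouse, whereas every identifier in the table is a human one. The identifiers carry no gene names, so *KRT7*, markers of ductal cells and a planned list of other microtubule genes were not looked up.

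Microtubules are hollow filaments built from dimers of alpha- and beta-tubulin. They form the mitotic spindle, carry cargo through the cell and, beside actin and the keratin filaments to which *KRT7* belongs, make up the cytoskeleton of epithelial cells. Several genes encode each kind of tubulin, and their products, the isotypes, differ mainly in the tail that protrudes from the microtubule surface. Cells are known to adjust tubulin mRNA stability to the pool of unpolymerized dimers, a process called tubulin autoregulation.

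The libraries held between 28208896 and 36315802 counts. Levels are given as CPM, the count of a gene per a fixed total of reads after TMM scaling of the library size. Pearson correlations of log2 CPM over the genes tested, which are not independent replicates, lay between 0.991 and 0.992 within si-Control and at 0.992 between si-KRT7 replicates 1 and 3. Replicate 2 of si-KRT7 correlated with them at 0.982, less than si-KRT7 and si-Control libraries did with each other (0.983 to 0.986). ENSG00000135480 had the most negative log2 fold change among genes past both limits (adjusted p under 0.05, absolute log2 fold change over 1) with a mean of at least 50 counts. It had 12.2%, 18.3% and 12.6% of its mean si-Control level in si-KRT7 replicates 1, 2 and 3. The identifier was picked from the fit of these same libraries, so its low level in replicate 2 is no independent check of that library. Because replicate 2 stood apart, fold changes and calls are given with and without it.

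In si-KRT7 cells, *TUBB6* was the only tubulin gene of the 8 tested that passed an adjusted p of 0.05 in edgeR's quasi-likelihood test, and its level fell to 69.6% of si-Control. None rose. The other 7 also had negative log2 fold changes, between -0.82 for *TUBB2A* and -0.07 for *TUBA1C*, but did not pass. The called share over all genes tested was 1.35% for genes lower in si-KRT7 cells and 0.712% for genes higher. No tubulin gene had an absolute log2 fold change over 1 together with an adjusted p under 0.05, which 0.292% of all genes had. The median log2 fold change was -0.42 over the 8 tubulin genes and 0.01 over all genes tested, where the quartiles were -0.16 and 0.20. At an unadjusted p under 0.05 in edgeR, 7 of the 8 were lower, whereas 9.08% of all genes tested were.

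**Figure D1:**
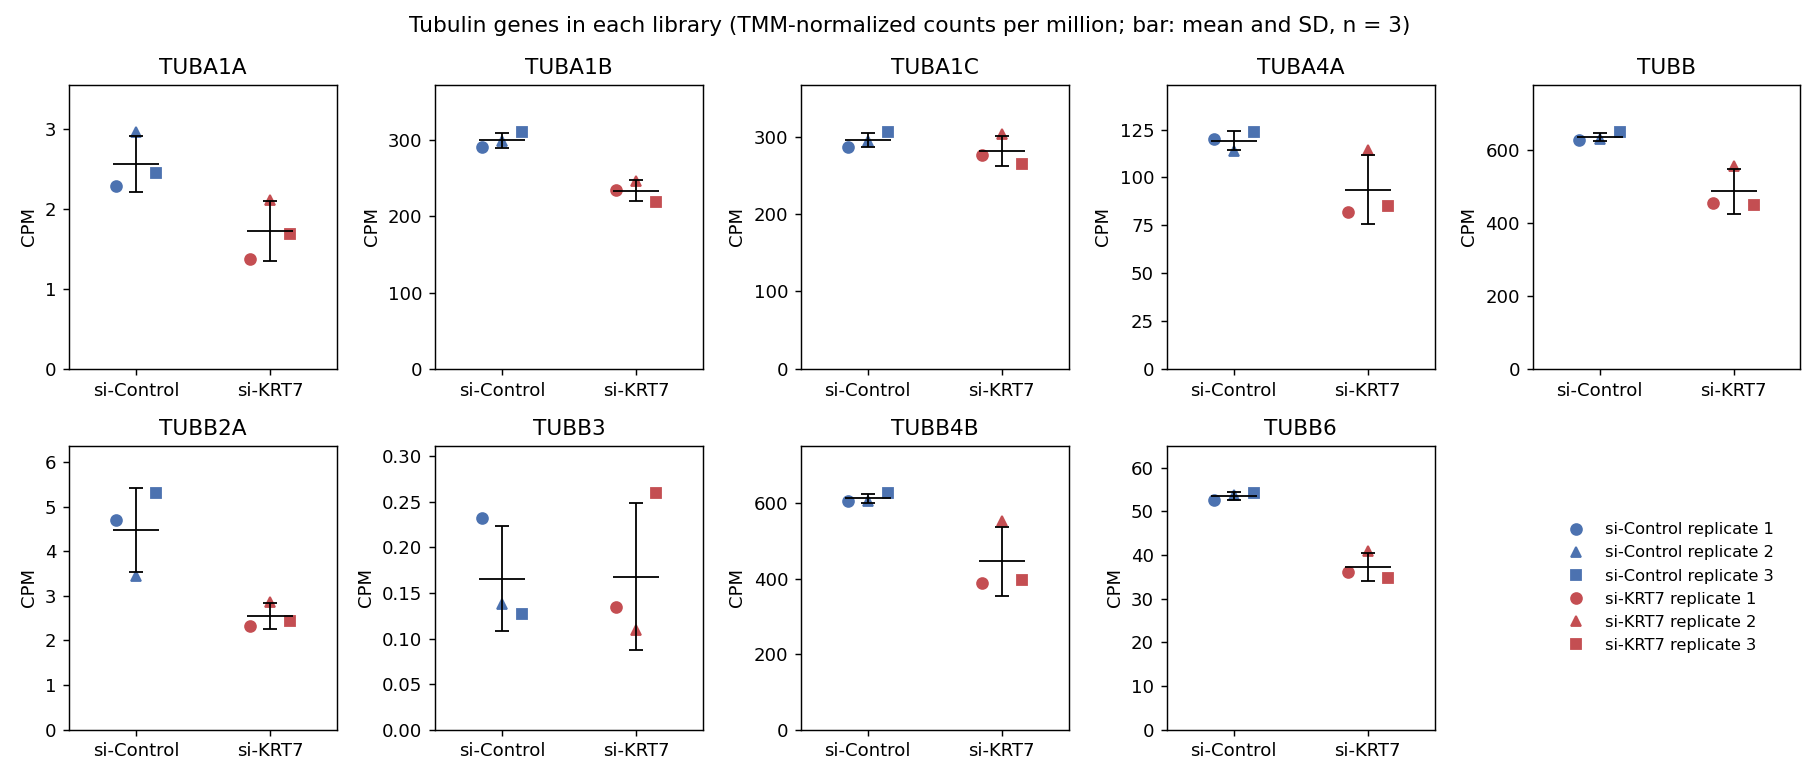
Level of each of the 9 tubulin genes in the table, in CPM after TMM normalization, with a separate vertical axis from 0 for each gene. Points are libraries, the bar is the mean with its SD (n = 3), and in *TUBB* all si-KRT7 points lie under all si-Control points while in *TUBA1C* they overlap.

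All si-KRT7 libraries lay below all si-Control libraries in 6 of the 8 genes tested, namely *TUBA1A*, *TUBA1B*, *TUBB*, *TUBB2A*, *TUBB4B* and *TUBB6*. Over all genes tested, 13.0% showed this order. For each of the 6 genes the two-sided exact permutation test of log2 CPM gave p = 0.1, which is the lower bound of a design with 3 libraries a group. Gene lengths were not used here, so CPM values of different genes are not compared as expression levels.

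*TUBB6* (ENSG00000176014) encodes the class V beta-tubulin. It had 52.5, 53.7 and 54.2 CPM in si-Control replicates 1, 2 and 3, and 36.0, 40.9 and 34.7 CPM in those of si-KRT7. The groups were far apart, and replicate 2 was the highest si-KRT7 library. The log2 fold change was -0.52 (standard error, SE, 0.09, 95% interval -0.73 to -0.31, adjusted p = 0.0299 in edgeR). The call was lost without any single library other than si-KRT7 replicate 2, 5 fits in all, with an adjusted p between 0.123 and 0.208 in edgeR, and it held without replicate 2 (adjusted p = 1.55e-08 in edgeR).

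*TUBB* (ENSG00000196230) encodes the class I beta-tubulin found in most cell types. It stood at 628, 631 and 648 CPM in the si-Control libraries and at 454, 557 and 448 CPM in si-KRT7 replicates 1, 2 and 3. Replicates 1 and 3 lay at 71.3% and 70.5% of the si-Control mean, and replicate 2 at 87.6%. The log2 fold change was -0.39 (SE 0.09, adjusted p = 0.0833 in edgeR), short of the limit.

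*TUBB4B* (ENSG00000188229), another widely expressed beta-tubulin gene, showed the same arrangement. It had 607, 605 and 627 CPM in si-Control replicates 1, 2 and 3 and 389.8, 553 and 396 CPM in those of si-KRT7. Replicate 2, at 90.2% of the si-Control mean, lay between the si-Control libraries and replicates 1 and 3, which were at 63.6% and 64.5%. The log2 fold change was -0.46 (SE 0.13, adjusted p = 0.119 in edgeR).

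*TUBB2A* (ENSG00000137267), a class II beta-tubulin gene prominent in neurons, was sparsely counted, with 75 to 167 reads per library. Its levels were 4.69, 3.45 and 5.31 CPM in the si-Control libraries and 2.32, 2.87 and 2.43 CPM in the si-KRT7 libraries. The spread among si-Control libraries was wide, and the lowest of them, replicate 2, was still above every si-KRT7 library. Its log2 fold change was the most negative of the 8, at -0.82 (SE 0.20, 95% interval -1.29 to -0.36, adjusted p = 0.0848 in edgeR). Of all genes tested, 1.47% had a lower value. How reads that match both *TUBB2A* and *TUBB2B* were counted is not given in the sources used here, so this value is uncertain.

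*TUBB3* encodes the class III beta-tubulin, commonly used as a marker of neurons. It had 8, 5 and 4 reads in the si-Control libraries and 5, 3 and 8 in the si-KRT7 libraries. The groups overlapped, and a difference was not detectable at this depth.

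Among alpha-tubulin genes, *TUBA1B* (ENSG00000123416) and *TUBA1C* (ENSG00000167553), both widely expressed and nearly identical in coding sequence, had unequal values. *TUBA1B* had 291, 299 and 310.3 CPM in the si-Control libraries and 235, 247 and 219 CPM in the si-KRT7 libraries, without overlap. Its log2 fold change of -0.36 (SE 0.07, 95% interval -0.53 to -0.19) had an adjusted p of 0.0522 in edgeR, just over the limit. Replicate 2 of si-KRT7, at 82.2% of the si-Control mean, lay near replicates 1 and 3 at 78.4% and 73.0%.

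*TUBA1C* had 287, 295 and 306 CPM in the si-Control libraries. In si-KRT7 replicates 1, 2 and 3 it had 276, 303 and 265 CPM, and replicate 2 fell inside the si-Control range. The log2 fold change was -0.07 (SE 0.08, adjusted p = 0.663 in edgeR), with a 95% interval from -0.25 to 0.10.

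*TUBA4A* (ENSG00000127824) is an alpha-tubulin gene whose product lacks the terminal tyrosine that most other alpha-tubulins carry. It had 120.2, 114 and 124 CPM in the si-Control libraries. The si-KRT7 libraries had 81.7, 114 and 84.8 CPM. Replicate 2 was level with si-Control, at 95.8% of its mean, whereas replicates 1 and 3 lay at 68.6% and 71.1%. With this spread the log2 fold change of -0.35 (SE 0.13) had an adjusted p of 0.203 in edgeR.

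*TUBA1A* (ENSG00000167552), the alpha-tubulin gene most associated with developing neurons, had 79, 107 and 77 reads in the si-Control libraries. It had 51, 58 and 52 reads in the si-KRT7 libraries, or 1.37, 2.11 and 1.69 CPM against 2.29, 2.96 and 2.45. The groups did not overlap, and the log2 fold change was -0.58 (SE 0.23, adjusted p = 0.218 in edgeR). The coding sequences of *TUBA1A*, *TUBA1B* and *TUBA1C* are so alike that reads may have been split between them, and their single values are uncertain for that reason. Summed, the 3 genes had between 580.0 and 618 CPM in si-Control and 513, 552 and 485 CPM in si-KRT7 replicates 1, 2 and 3, a log2 ratio of means of -0.21.

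**Figure D2:**
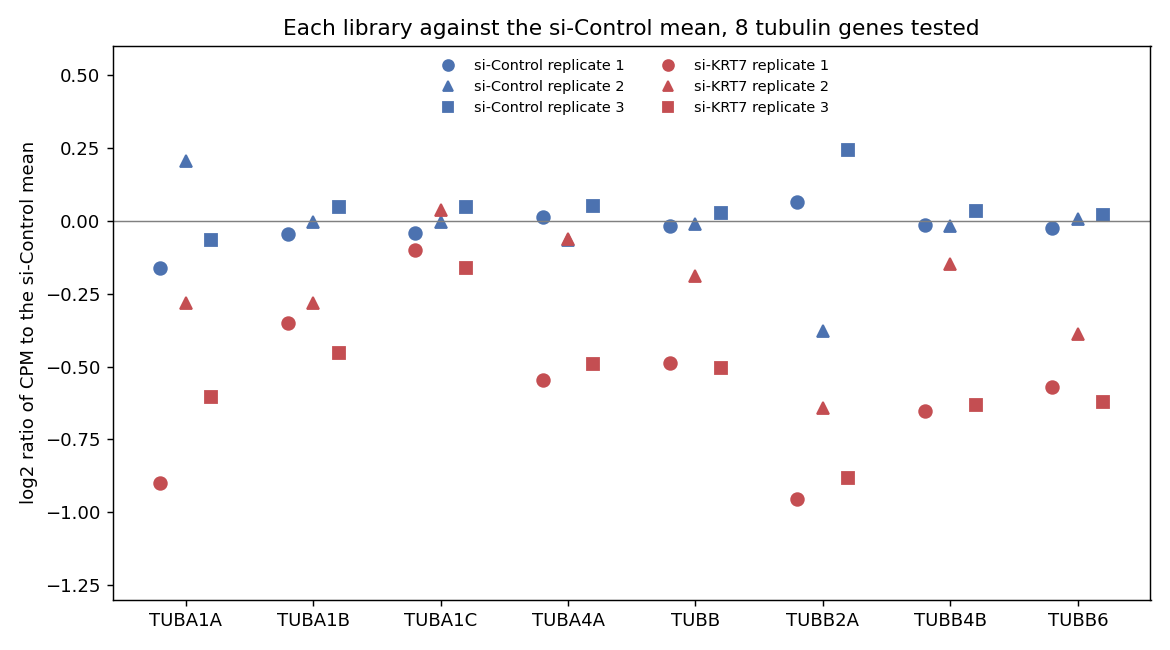
Log2 ratio of the CPM of each library to the si-Control mean (vertical axis) for the 8 tubulin genes tested (horizontal axis), blue for si-Control and red for si-KRT7. Replicate 2 of si-KRT7 (red triangles) is the red point nearest to 0 in each gene, and in *TUBA1C* it lies slightly above 0.

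Replicate 2 lay apart from the other si-KRT7 libraries. It was the highest si-KRT7 library in all 8 genes, although how near it came to si-Control differed from gene to gene. It was within the si-Control range in *TUBA4A* and *TUBA1C*, at 87.6% and 90.2% of the si-Control mean in *TUBB* and *TUBB4B*, and at 82.2% or below in *TUBA1A*, *TUBA1B*, *TUBB6* and *TUBB2A*, where *TUBB2A* stood at 64.0%. The part of replicate 2's separate position in these values was not tested.

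Without replicate 2, all 8 tubulin genes fell with an adjusted p under 0.05 in edgeR. In that fit 22.0% of the 16202 genes tested did. *TUBB4B* had a log2 fold change of -0.65 (SE 0.03, adjusted p = 3.14e-13 in edgeR) and *TUBB* one of -0.50 (SE 0.03, adjusted p = 1.24e-11 in edgeR). *TUBA4A* moved from -0.35 to -0.52 (SE 0.04), and *TUBA1C* stayed the smallest in size at -0.13 (SE 0.04, adjusted p = 0.00341 in edgeR). *TUBA1B* had -0.40 (SE 0.04, adjusted p = 6.87e-09 in edgeR) and *TUBB6* -0.60 (SE 0.06). *TUBB2A* had -0.92 and *TUBA1A* -0.75, with SEs of 0.21 and 0.25. This fit compares 2 si-KRT7 libraries with 3 of si-Control. Replicate 2 was the highest si-KRT7 library in all 8 genes, so leaving it out had to lower their si-KRT7 means.

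**Figure D3:**
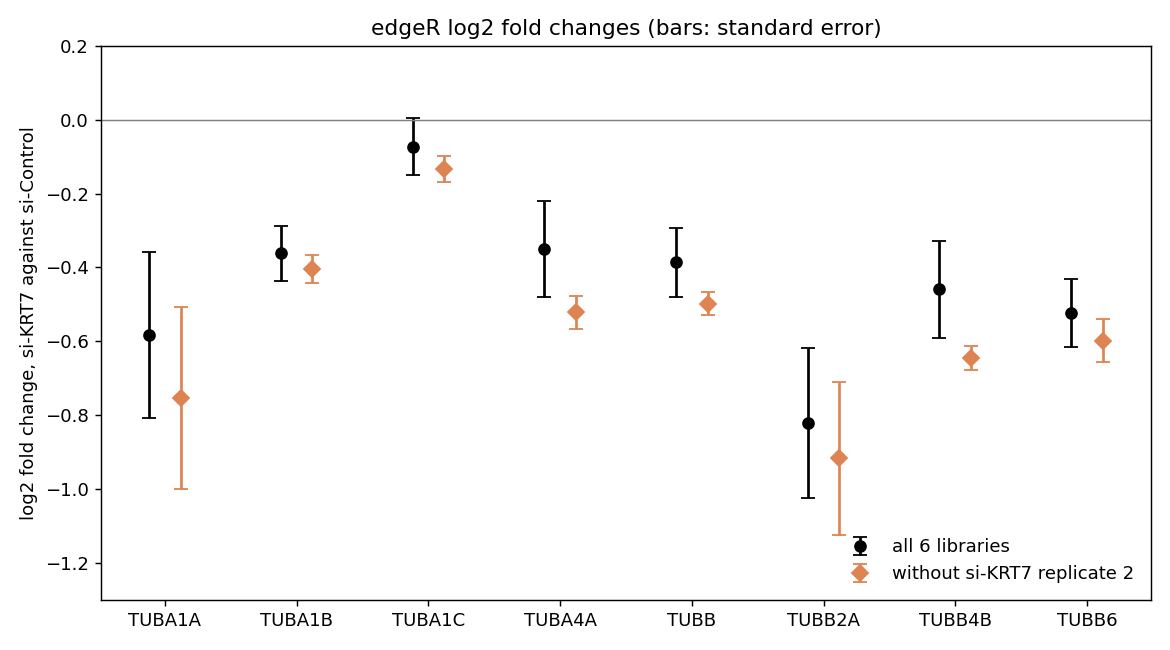
Log2 fold change of si-KRT7 against si-Control (vertical axis, bars are standard errors) for 8 tubulin genes with all 6 libraries (black circles) and without si-KRT7 replicate 2 (orange diamonds). All values are negative in both fits, and leaving out replicate 2 moves *TUBB4B* from -0.46 to -0.65.

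**Figure D4:**
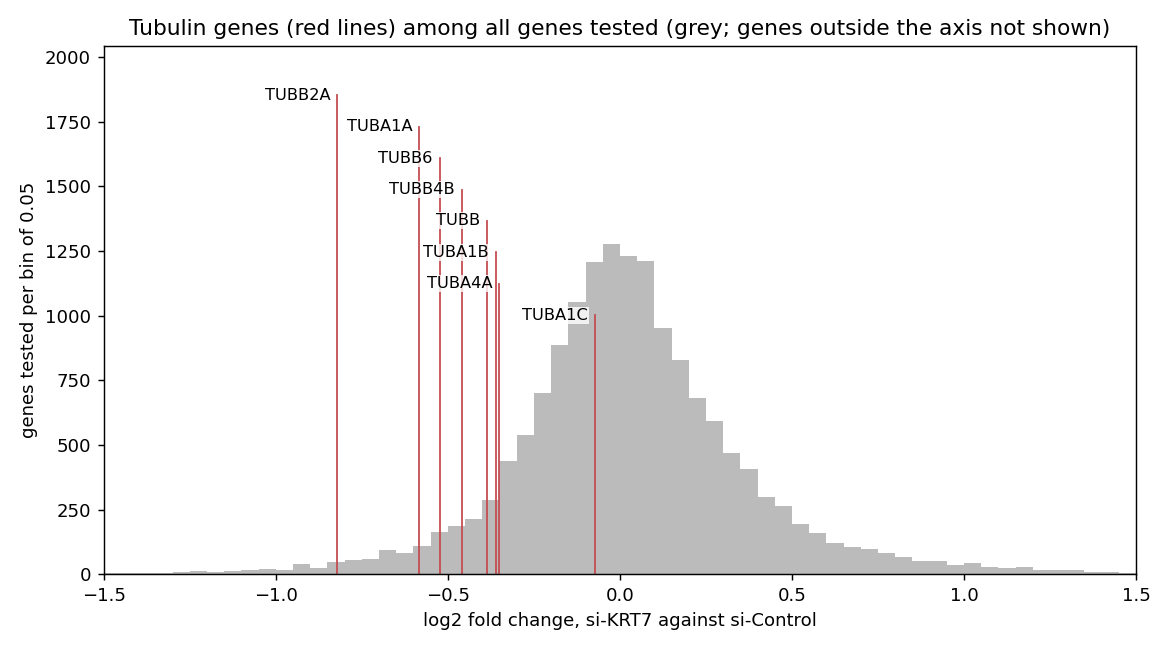
Histogram of log2 fold changes over the genes tested (grey, number of genes per bin), with the 8 tubulin genes as red lines whose height carries no value. *TUBB2A* lies far in the left flank at -0.82 and *TUBA1C* lies near the centre at -0.07.

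Set against all genes tested, the tubulin genes other than *TUBA1C* lay in the lower flank of the distribution. The share of genes with a lower log2 fold change was 3.64% for *TUBA1A*, 4.58% for *TUBB6*, 6.08% for *TUBB4B* and 8.15% for *TUBB*. It was 9.01% for *TUBA1B* and 9.53% for *TUBA4A*, but 36.4% for *TUBA1C*.

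The alpha- and beta-tubulin genes were also summed, as a description with no test. The 5 beta-tubulin genes in the table together had 1292, 1293 and 1335 CPM in si-Control replicates 1, 2 and 3. In si-KRT7 they had 882, 1154 and 881 CPM, so that replicates 1 and 3 were at 67.5% and 67.4% of the si-Control mean and replicate 2 at 88.3%. The 4 alpha-tubulin genes had 700.3, 711 and 742 CPM in si-Control and 594, 666 and 570.1 CPM in si-KRT7. The log2 ratio of means was -0.43 for the beta-tubulin sum and -0.23 for the alpha-tubulin sum, and without si-KRT7 replicate 2 it was -0.57 and -0.30. In bulk RNA, fewer cells with a high level and less RNA per cell cannot be told apart.

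The share of a gene among the counts of its class does not depend on the scaling between libraries. *TUBA1C* took 41.0%, 41.5% and 41.2% of the alpha-tubulin counts in si-Control replicates 1, 2 and 3. In si-KRT7 it took 46.5%, 45.5% and 46.4%, and the groups did not overlap. The share of *TUBA1B* was 41.5%, 42.1% and 41.8% in si-Control and 39.6%, 37.0% and 38.4% in si-KRT7, again without overlap. Exact binomial 95% intervals, which cover counting error only, reached up to 42.1% for *TUBA1C* in si-Control and down to 44.8% in si-KRT7. In these shares replicate 2 lay with the other si-KRT7 libraries.

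In the beta-tubulin class the shares of the 2 leading genes depended on the library. *TUBB* took 48.6%, 48.8% and 48.6% in si-Control and 51.4%, 48.3% and 50.9% in si-KRT7 replicates 1, 2 and 3. *TUBB4B* took 47.0%, 46.8% and 47.0% in si-Control and 44.2%, 47.9% and 44.9% in si-KRT7. Replicates 1 and 3 of si-KRT7 thus held more *TUBB* and less *TUBB4B* among their beta-tubulin reads than any si-Control library, and replicate 2 held less *TUBB* and more *TUBB4B*. *TUBB6* took between 4.06% and 4.15% in si-Control and between 3.54% and 4.08% in si-KRT7, where the lowest value was that of replicate 2.

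**Figure D5:**
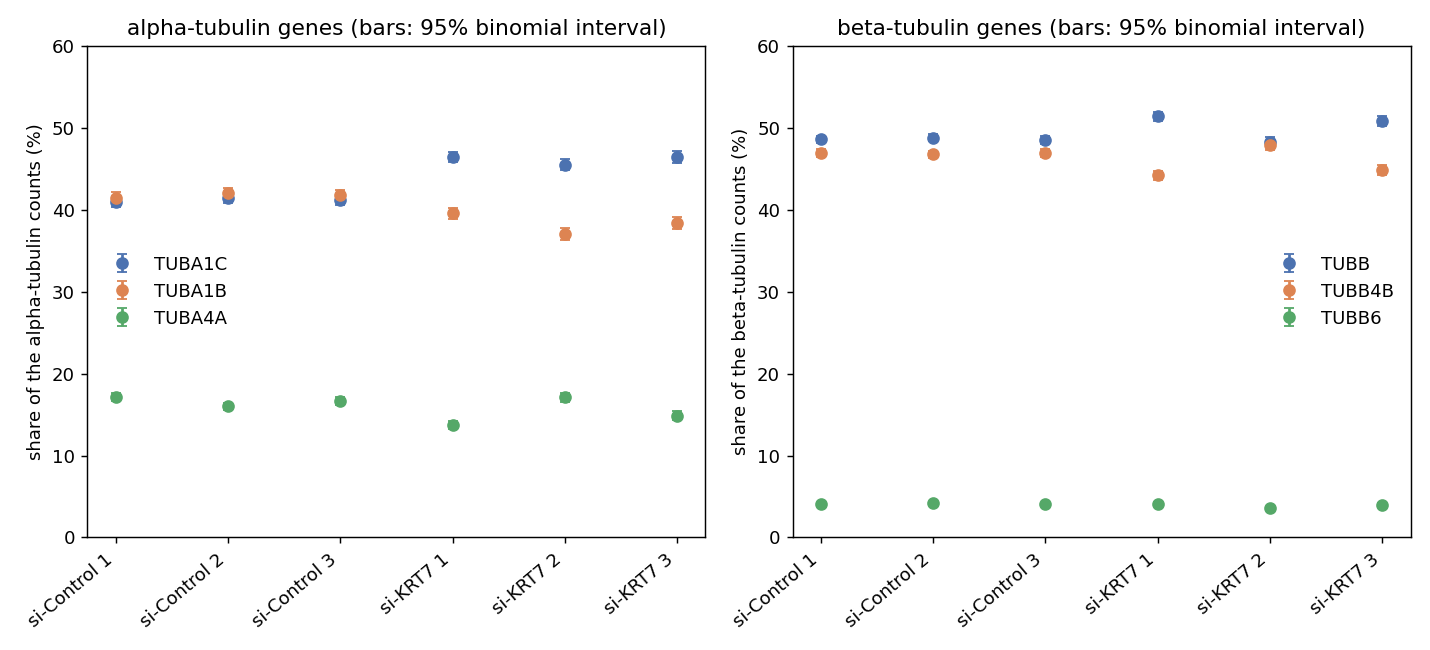
Share of the counts of the class in percent (vertical axis) in each of the 6 libraries (horizontal axis) for the leading alpha-tubulin (left) and beta-tubulin genes (right), with exact binomial 95% intervals. *TUBA1C* and *TUBA1B* lie together near 41% and 42% in si-Control and apart in every si-KRT7 library, whereas *TUBB* and *TUBB4B* move apart in si-KRT7 replicates 1 and 3 only.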

How the data were processed

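The deposited table holds raw read counts for each gene in 6 libraries, prepared from polyadenylated RNA and sequenced on the DNBSEQ platform. The submitters' processing notes name STAR 2.7.11b and the mouse build GRCm39. The counting tool, the annotation, the strand setting and the treatment of reads matching several genes are not given in the sources used here.

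The main test was that of edgeR 4.0.16 in R 4.3.3 (filterByExpr, TMM, glmQLFit and glmQLFTest on the group), with Benjamini-Hochberg adjustment over the 15736 genes tested, which held 99.9% of all counts. CPM used the TMM-scaled library size. Correlations used a prior count of 2. Standard errors were derived from the F statistic, and 95% intervals from those. Alternatives used DESeq2 1.42.0, limma 3.58.1, other filters and scalings, each library left out and the replicate number as a block. The procedure was also run on simulated counts, drawn with the same dispersion for all genes and with no deviating library. That simulation therefore does not cover data in which a library stands apart, as si-KRT7 replicate 2 did here. All 10 genes were named by rule, with symbols taken from the definition of the gene set, since the reference tables at hand were those of the mouse. For the same reason no human sequence or coordinate is printed. The genes, lists and tests were chosen with earlier results of these data known.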

Additional observations from a re-analysis of the deposited data

How the results depend on the processing

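All 8 tubulin genes tested kept a negative log2 fold change in each of the 15 alternatives, and in each of them 0 passed both limits. The number with an adjusted p under 0.05, 1 in edgeR with all libraries, was 5 in the DESeq2 Wald test (*TUBA1B*, *TUBB*, *TUBB2A*, *TUBB4B* and *TUBB6*), 8 in limma-voom with sample quality weights, 6 without a filter on counts (those 5 and *TUBA4A*), and 2 among genes that reached 10 counts in each library (*TUBA1B* and *TUBB6*). Over all genes the number was 325 of 15736 with edgeR (2.07%), 1148 of 15736 in the DESeq2 Wald test (7.30%), 6858 of 15736 with quality weights (43.6%), 1347 of 30543 without a filter (4.41%) and 334 of 14272 among genes that reached 10 counts (2.34%). The cause was not tested. The robust fit, limma-voom, scaling by library size and DESeq2's size factors each left *TUBB6* as the single call.

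With libraries left out in turn, the number of tubulin genes called ran from 0 to 8 and the number over all genes from 6 to 6944. Both maxima arose without si-KRT7 replicate 2, and each other fit called 0 tubulin genes. *TUBB6* lay between -0.60 and -0.48 in them.

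With the replicate block, 0 tubulin genes and 76 of all genes passed. Libraries with the same number, centred on their group, correlated at 0.0520, -0.0798 and -0.0728 across genes. Of the 6, 1 correlated best with its own number. With 3 a group, this cannot exclude pairing. With libraries left out in turn, the difference of class shares (si-KRT7 minus si-Control) lay between 4.74 and 5.21 points for *TUBA1C* and between -4.08 and -2.81 for *TUBA1B*. For *TUBB4B*, *TUBB*, *TUBA4A*, *TUBB6* and *TUBB3* it varied with single si-KRT7 libraries, though each shift stayed below the pooled within-group SD. For *TUBB4B* it was -1.24, but -0.508 without replicate 1, -2.36 without replicate 2 and -0.850 without replicate 3. For *TUBB* it was 1.55, but 0.933 without replicate 1 and 2.50 without replicate 2. For *TUBA4A* it was -1.36, but -0.607 without replicate 1 and -2.30 without replicate 2. For *TUBB6* it was -0.237, but -0.0806 without replicate 2. That of *TUBB3*, 0.00535, turned negative without replicate 3.

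At 3 to 8 reads per library *TUBB3* cannot be resolved, and *TUBA1A* and *TUBB2A*, with 51 to 167 reads, carry the widest errors.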

Other observations

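Count ratios between tubulin genes were computed within each library, so that no scaling between libraries enters. The pairs were chosen after the values were seen and carry no test. *TUBA1B* to *TUBA1C* stood at 1.01, 1.01 and 1.02 in si-Control replicates 1, 2 and 3 and at 0.852, 0.813 and 0.828 in si-KRT7. The lowest value belonged to si-KRT7 replicate 2, the library nearest to si-Control in the CPM of both genes. The part in this ratio of reads that match both genes was not tested.

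*TUBB* to *TUBA1C* was 2.19, 2.14 and 2.12 in si-Control and 1.64, 1.84 and 1.69 in si-KRT7, without overlap. *TUBB6* to *TUBB* was 0.0837, 0.0851 and 0.0836 in si-Control and 0.0794, 0.0734 and 0.0775 in si-KRT7, also without overlap and with replicate 2 lowest. *TUBB4B* to *TUBB* was 0.966, 0.958 and 0.967 in si-Control and 0.859, 0.992 and 0.882 in si-KRT7, so that replicate 2 lay above si-Control and the others below. The beta-tubulin sum to the alpha-tubulin sum was 1.84, 1.82 and 1.80 in si-Control and 1.48, 1.73 and 1.55 in si-KRT7.

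The spread within si-Control was smallest for 3 of the beta-tubulin genes. The coefficient of variation of CPM was 1.73% for *TUBB*, 2.03% for *TUBB4B* and 1.61% for *TUBB6* in si-Control. In si-KRT7 it was 12.6%, 20.7% and 8.70%. Counting error alone, taken from the mean count, would give 0.680%, 0.692% and 2.34% in si-Control and 0.808%, 0.847% and 2.91% in si-KRT7. The spread of *TUBB6* in si-Control was thus below its counting error. For *TUBA1B*, *TUBA1C* and *TUBA4A* the coefficient of variation was 3.29%, 3.12% and 4.14% in si-Control. It was 5.96%, 7.07% and 19.1% in si-KRT7. Replicate 2 was the highest si-KRT7 library in each of these genes.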
